A study of Rattus norvegicus with 22 samples.

Results

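Ttpa (ENSRNOG00000007139), Slc22a3 (ENSRNOG00000022946) and Cyp4f4 (ENSRNOG00000032895), genes of vitamin E, organic cation and lipid handling that were lower in the injured cortex, were followed across both hemispheres. They are 3 of the 32545 gene identifiers in the count table, of which 23572 had a count in at least 1 library and 1822 could be paired with a symbol. The 3 genes were selected on their ipsilateral counts: their RNA was lower in the ipsilateral cortex of injured rats than in that of sham rats. Every value that rests on those ipsilateral libraries is therefore given as a description, and only the contralateral comparison of PBBI with sham was tested.

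Libraries came from cortical tissue of 11 adult male Sprague-Daley rats (spelled as in the labels). In the penetrating ballistic brain injury (PBBI) group, 6 rats received a right frontal craniectomy and a probe whose elastic tubing was rapidly inflated and deflated, which left a cavity in the brain. In the sham group, 5 rats went through the same procedure except that no probe was inserted, so the controls also carried the craniectomy. All rats had been implanted with recording electrodes and were sampled at 24 h. The ipsilateral (right) and contralateral (left) hemisphere of each rat gave 1 library each, 22 in all, and a rat number below names the animal. The titles of both libraries of PBBI rat 81 and of the contralateral library of sham rat 82 carry PFC. All other titles carry CC or CI. Whether the titles mark different pieces of cortex is not stated, and the part of this in the values below was not tested. A library holds many cell types, so fewer cells of a type and less RNA per cell cannot be told apart in any value below.

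Total counts lay between 42085341 and 63412426 per library. The ipsilateral library of PBBI rat 85 stood apart: its mean correlation with the other ipsilateral PBBI libraries was 0.835 on the log2 CPM scale, against 0.933 to 0.943 for the rest of that group and at least 0.951 in the other groups. The fitted fold changes, rat-by-rat means and list counts that include rat 85 are given with and without it. Symbols could be paired only for genes that the study had listed, and none of the 19 neuronal markers could be paired, so the cortical label was not checked against neurons. Astrocyte markers were abundant in all groups, with a summed level of at least 570.6 CPM (counts scaled to a common library size) over 4 genes without Gfap. By group means most of that sum was 1 gene, Aldoc.

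Ttpa encodes the alpha-tocopherol transfer protein, a lipid-binding protein of the CRAL-TRIO family that moves vitamin E out of the endosomal system for secretion. It is best known from the liver, and its loss in humans causes ataxia with vitamin E deficiency. Slc22a3 encodes OCT3, also called the extraneuronal monoamine transporter, a low-affinity carrier of organic cations that takes up noradrenaline, dopamine, serotonin and histamine into cells outside monoaminergic terminals. Cyp4f4 encodes a cytochrome P450 whose family hydroxylates the omega end of fatty acids and eicosanoids, among them leukotriene B4, a step that inactivates this leukocyte attractant. The 3 proteins handle small lipophilic or cationic molecules and share no known pathway.

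Among the promoter sequences of RefSeq (build GRCr8), 1 of the 3 genes was matched, Slc22a3. Its 250 bases upstream of the start lie on the plus strand at chr1:50782968-50783217 and are shown because no other of the genes was matched. The capitals mark TGACG, the core of a cyclic AMP response element.
Slc22a3: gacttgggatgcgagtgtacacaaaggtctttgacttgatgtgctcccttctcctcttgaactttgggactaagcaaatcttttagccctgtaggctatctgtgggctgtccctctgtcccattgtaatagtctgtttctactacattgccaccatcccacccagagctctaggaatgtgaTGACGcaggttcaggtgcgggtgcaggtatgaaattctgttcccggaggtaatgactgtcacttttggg
On both strands, TGACG occurred 1 time, at -69 from the start, and 18.2% of the 33469 promoters of the same length held it. The E-box core CANNTG occurred 1 time, at -58, without overlapping TGACG, and is found in 65.5% of promoters. No match was found for the full E-box CACGTG, held by 5.59%, or the AP-1 motif TGANTCA, held by 6.34%. These are letter matches only. Ttpa and Cyp4f4 were not matched.

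In the cortex of sham rats the 3 genes were expressed at low to moderate levels. Per kilobase of the annotated length (2120 bases for Ttpa, 2217 for Cyp4f4 and 3486 for Slc22a3), the mean level in the sham contralateral cortex was 4.50 CPM per kilobase for Ttpa, 2.03 for Cyp4f4 and 1.15 for Slc22a3. The order was the same in the ipsilateral PBBI cortex, where the means were 1.17, 0.524 and 0.318 CPM per kilobase. Levels below are CPM, scaled with trimmed-mean (TMM) factors over all 22 libraries, and are compared only within a gene.

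Ttpa was the most abundant of the 3 genes. In the sham contralateral cortex its counts were 464, 542, 748, 440 and 410 (rats 82, 84, 86, 91 and 94), or 8.64, 8.90, 13.6, 7.15 and 9.36 CPM. In the sham ipsilateral cortex the same rats gave 530, 557, 575, 551 and 428 counts, or 9.84, 10.6, 15.0, 8.79 and 7.06 CPM. Rat 86 was the highest sham animal in both hemispheres, and the hemispheres of the sham rats overlapped.

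In PBBI rats 81, 83, 85, 88, 90 and 96, the contralateral counts of Ttpa were 229, 612, 828, 521, 462 and 571, or 3.74, 11.4, 14.3, 7.92, 7.94 and 9.94 CPM. The ipsilateral counts were 81, 331, 48, 134, 129 and 286, or 1.26, 4.89, 1.05, 1.94, 1.86 and 3.87 CPM. Every ipsilateral PBBI library lay below every sham library of either hemisphere, and rats 83 and 96 were the highest of the injured side. Rat 81 had the lowest contralateral value of either group, below the injured side of rats 83 and 96.

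The group means of Ttpa were 10.3 ± 2.98 CPM (SD, n = 5) in sham ipsilateral, 9.54 ± 2.44 (n = 5) in sham contralateral, 9.21 ± 3.60 (n = 6) in PBBI contralateral and 2.48 ± 1.55 (n = 6) in PBBI ipsilateral cortex. The first 3 groups in this order differed from their neighbours by less than 1 SD. The ipsilateral PBBI mean was 24.2% of the ipsilateral sham mean and 26.9% of the contralateral PBBI mean.

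Slc22a3 had lower counts. In the sham contralateral cortex they were 249, 267, 334, 125 and 126, or 4.64, 4.39, 6.09, 2.03 and 2.88 CPM, a spread in which rats 91 and 94 were low. In the sham ipsilateral cortex the counts were 248, 251, 142, 222 and 203, or 4.60, 4.78, 3.71, 3.54 and 3.35 CPM. The count of 142 came from the shallowest library, that of rat 86, and its CPM was inside the range of the other sham rats.

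In PBBI rats the contralateral counts of Slc22a3 were 182, 128, 194, 183, 175 and 122, or 2.97, 2.38, 3.36, 2.78, 3.01 and 2.12 CPM. On the injured side they were 52, 172, 50, 68, 38 and 50, or 0.810, 2.54, 1.09, 0.983, 0.548 and 0.677 CPM. The injured libraries of 5 rats were close together and rat 83 was apart from them, inside the contralateral PBBI range and below the sham ipsilateral range.

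The group means of Slc22a3 were 4.0 ± 1.59 CPM (SD, n = 5) in sham contralateral, 4.0 ± 0.649 (n = 5) in sham ipsilateral, 2.77 ± 0.449 (n = 6) in PBBI contralateral and 1.11 ± 0.730 (n = 6) in PBBI ipsilateral cortex. Both sham means were alike within their spread. The contralateral PBBI mean was 69.2% of the contralateral sham mean, a gap smaller than the SD of the sham libraries. The ipsilateral PBBI mean was 27.8% of the ipsilateral sham mean and 40.0% of the contralateral PBBI mean.

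Cyp4f4 was intermediate per kilobase in each group. In the sham contralateral cortex its counts were 229, 313, 293, 281 and 139, or 4.26, 5.14, 5.34, 4.57 and 3.17 CPM. In the sham ipsilateral cortex they were 176, 243, 141, 255 and 325, or 3.27, 4.62, 3.68, 4.07 and 5.36 CPM. The hemispheres of the sham rats overlapped, and rat 94 was lowest on one side and highest on the other.

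In PBBI rats the contralateral counts of Cyp4f4 were 210, 152, 200, 363, 359 and 236, or 3.43, 2.83, 3.46, 5.52, 6.17 and 4.11 CPM. The ipsilateral counts were 96, 172, 42, 26, 74 and 42, or 1.49, 2.54, 0.919, 0.376, 1.07 and 0.569 CPM. Every ipsilateral PBBI library lay below every library of the other 3 groups. Rat 83 was again the highest of the injured side, and rat 88, with a high contralateral value of the injured rats, was the lowest.

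The group means of Cyp4f4 were 4.50 ± 0.857 CPM (SD, n = 5) in sham contralateral, 4.25 ± 1.31 (n = 6) in PBBI contralateral, 4.20 ± 0.818 (n = 5) in sham ipsilateral and 1.16 ± 0.782 (n = 6) in PBBI ipsilateral cortex. The first 3 groups differed by less than 1 SD. The ipsilateral PBBI mean was 27.6% of the ipsilateral sham mean and 27.3% of the contralateral PBBI mean.

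The plot of levels shows these values for each library, with the hemispheres of a rat joined. In it the ipsilateral PBBI points of each gene form the lowest group, and the contralateral PBBI points overlap the contralateral sham points for each gene. For Ttpa rat 81 lies below the sham points and rat 85 above them, for Cyp4f4 rat 83 lies below and rats 88 and 90 above, and for Slc22a3 the PBBI points lie in the lower part of the sham range.

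**Figure D1:**
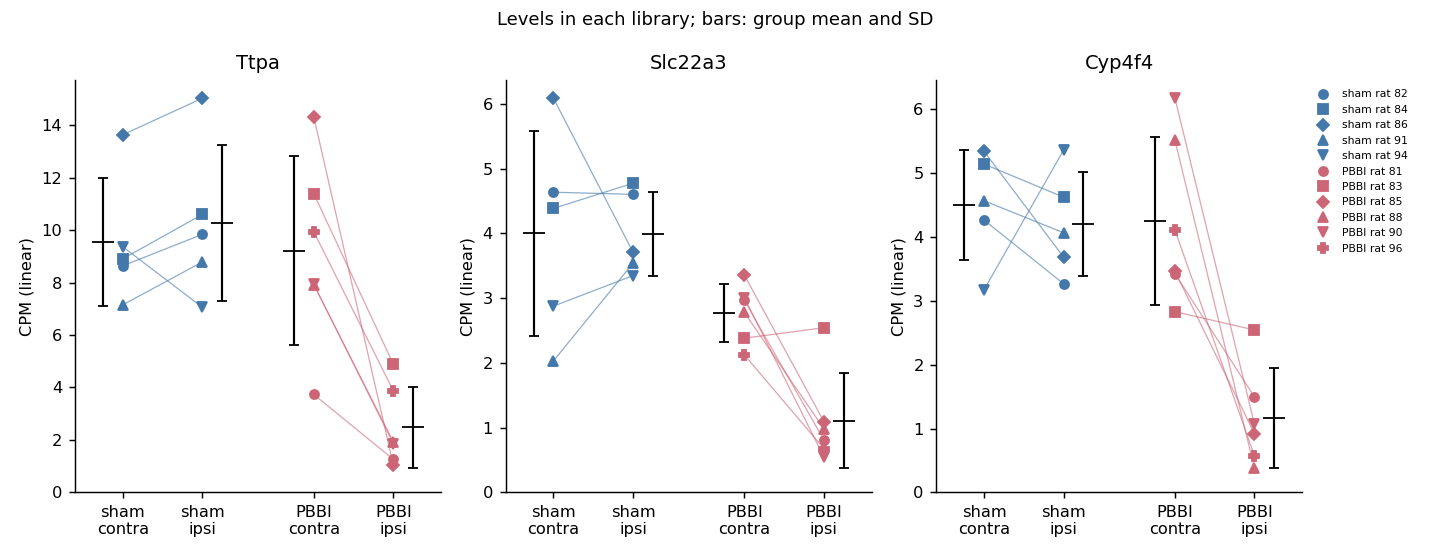
CPM (linear axis from 0) of Ttpa, Slc22a3 and Cyp4f4 in the 4 groups. Each symbol is 1 library, lines join the hemispheres of 1 rat, and black bars give the group mean and SD (n = 5 sham, n = 6 PBBI). The ipsilateral PBBI means of 2.48, 1.11 and 1.16 CPM are the lowest of each panel.

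The comparison that chose the genes, PBBI against sham in the ipsilateral cortex, is given first as a description. With edgeR, the log2 fold change of Ttpa was -2.05 (SE 0.412, 95% interval -2.95 to -1.16). That of Slc22a3 was -1.85 (SE 0.390, interval -2.69 to -1.0), and that of Cyp4f4 was -1.85 (SE 0.437, interval -2.80 to -0.91). The median over all 16104 genes tested was -0.02. By fold change the 3 genes stood 17th (Ttpa), 34th (Cyp4f4) and 36th (Slc22a3) from the bottom of that list. All 3 were among the 94 genes past an adjusted p of 0.05 in the lower direction, 0.584% of the genes tested (4.68% in both directions), which their selection fixed. The last gene inside that threshold was Tomm40l (log2 fold change -0.76, adjusted p = 0.0496 by edgeR's quasi-likelihood test) and the first outside was Efcab1 (-1.17, adjusted p = 0.0506).

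On the injured side all PBBI libraries lay below all sham libraries for the 3 genes, a pattern shown by 1.24% of the genes tested. Leaving out rat 85, whose library stood apart, gave log2 fold changes of -1.91 for Ttpa, -1.85 for Slc22a3 and -1.80 for Cyp4f4. The number of lowered genes over the whole table was then 825, or 5.16% (13.7% were called in either direction). Leaving out rat 83, which had the highest injured-side value of each gene, gave -2.36, -2.27 and -2.24. Of the 11 fits that each left out 1 library, Ttpa was past the threshold in 11. Slc22a3 was past it in 7, all but those without PBBI rats 81 and 88 or sham rats 82 and 84. Cyp4f4 was past it in 2, those without PBBI rats 83 and 85, with an edgeR adjusted p of at most 0.0808 in the others. The number of lowered genes over the whole table moved too, from 94 with all libraries. It was 825 without PBBI rat 85, 298 without PBBI rat 83 and 15 to 36 in the other fits. Nothing about the 3 genes is read from these passes, since this comparison chose them.

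The contralateral cortex asks whether the hemisphere without the probe track also differed from sham, and its libraries played no part in choosing the genes. None of the 3 genes passed the test there. The log2 fold change of Ttpa was -0.06 (SE 0.289, 95% interval -0.68 to 0.56, edgeR adjusted p = 1.00 over 15907 genes). For Cyp4f4 it was -0.08 (SE 0.244, interval -0.61 to 0.44, edgeR adjusted p = 1.00). Slc22a3 had the lowest value, -0.53 (SE 0.275, interval -1.12 to 0.06, unadjusted p = 0.0738 and adjusted p = 1.00 by edgeR), and 2.80% of the genes tested had a value as low or lower. No gene of the whole table was called by edgeR (0%), while 366, or 2.3%, had an unadjusted p under 0.05, none of them among the 3 genes. Without rat 85 the values were -0.23 for Ttpa, -0.60 for Slc22a3 and -0.03 for Cyp4f4, and again no gene was called (0%). DESeq2 called 3 genes without a prior on fold changes and 0 with one, and limma voom called 1.

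An exact permutation test, two-sided over all 462 ways of splitting the 11 rats, gave the same reading on mean log2 CPM. The PBBI minus sham difference was -0.13 for Ttpa (exact permutation p = 0.740), -0.44 for Slc22a3 (p = 0.147, exact) and -0.11 for Cyp4f4 (p = 0.626, exact), where the smallest p this design allows is 0.00216. For Slc22a3, 3 of the 5 sham libraries lay above all PBBI libraries, but sham rat 91 lay below all 6 of them. Without that rat the difference was -0.66 (exact permutation p = 0.0190), and without sham rat 86, the highest, it was -0.27. The other omissions left p above 0.05, so the reading for Slc22a3 rests on sham rat 91. For Ttpa and Cyp4f4, 1 of the 6 PBBI libraries lay below all sham libraries. The sign of the Ttpa difference turned positive without PBBI rat 81 (0.11) and without sham rat 86 (0.01), so no direction can be read. All PBBI libraries lay below all sham libraries for 0.0629% of the genes, and for none of these 3. The intervals show the size of a difference that these libraries leave possible, and do not show that the hemispheres were alike.

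**Figure D2:**
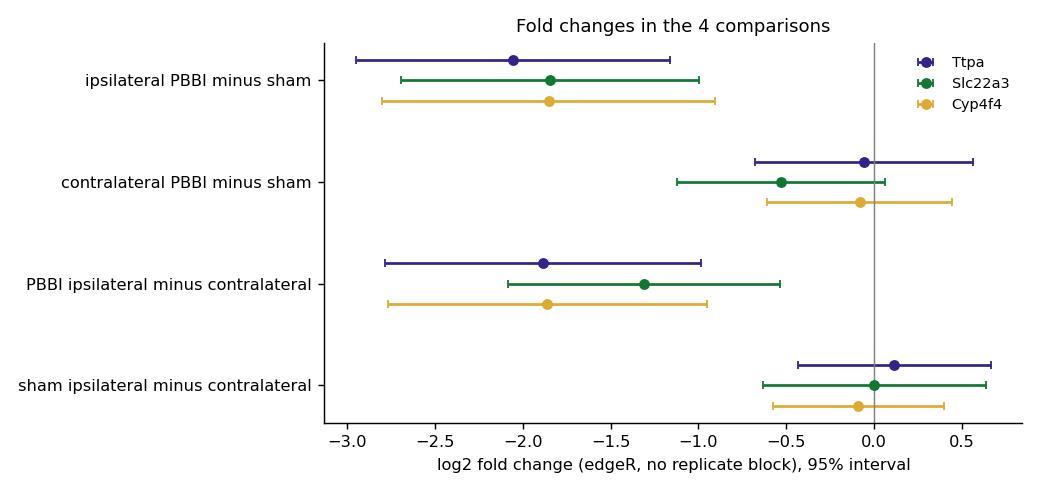
Log2 fold changes of the 3 genes (edgeR, no replicate block) with 95% intervals in 4 comparisons. The contralateral intervals, such as -1.12 to 0.06 for Slc22a3, include 0. The ipsilateral intervals lie below 0, as the choice of the genes fixed.

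Within PBBI rats, the hemispheres of the same animal were compared rat by rat. The injured-side libraries are the ones that chose the genes, so these differences are also a description. Ttpa was lower on the injured side in 6 of 6 rats. Its log2 CPM difference was -1.54, -1.21, -3.73, -2.01, -2.07 and -1.35 in rats 81, 83, 85, 88, 90 and 96 (mean -1.99, SD 0.921, n = 6, and -1.64, SD 0.388, n = 5, without rat 85). Rat 85 had the widest gap, with 7.33% of its contralateral level left on the injured side, and the others kept between 23.4% (rat 90) and 43.0% (rat 83).

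Slc22a3 was lower on the injured side in 5 of 6 rats. The differences were -1.83, 0.09, -1.59, -1.47, -2.39 and -1.60 in the same order (mean -1.46, SD 0.830, n = 6, and -1.44, SD 0.925, n = 5, without rat 85). In rat 83 the injured side stood at 106.7% of the contralateral side, while in the other rats it stood at 18.2% to 35.3%.

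Cyp4f4 was lower on the injured side in 6 of 6 rats, with differences of -1.18, -0.15, -1.87, -3.76, -2.50 and -2.78 (mean -2.04, SD 1.27, n = 6, and -2.07, SD 1.42, n = 5, without rat 85). Rat 88 kept 6.81% of its contralateral level and rat 83 kept 89.9%. The widest gap therefore fell in rat 85 for Ttpa, in rat 90 for Slc22a3 and in rat 88 for Cyp4f4, while rat 83 had the narrowest gap for each gene. Over the whole table, 11.9% of genes were lower on the injured side in all 6 rats.

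In sham rats the differences between hemispheres lay around 0. The mean log2 difference was 0.09 for Ttpa (SD 0.285, n = 5, lower in 1 of 5 rats), 0.08 for Slc22a3 (SD 0.538, lower in 2 of 5) and -0.10 for Cyp4f4 (SD 0.499, lower in 4 of 5). No gene was lower on the ipsilateral side in all 5 sham rats among the 3, against 2.27% of all genes. For Ttpa the 6 PBBI differences lay below the 5 sham differences without overlap. For Slc22a3 and Cyp4f4 rat 83 lay among the sham rats, and the other 5 PBBI rats lay below all sham rats. These gaps are a description, since the injured-side libraries chose the genes. The share of all genes with such gaps was not computed, so nothing particular to these genes is read from them.

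**Figure D3:**
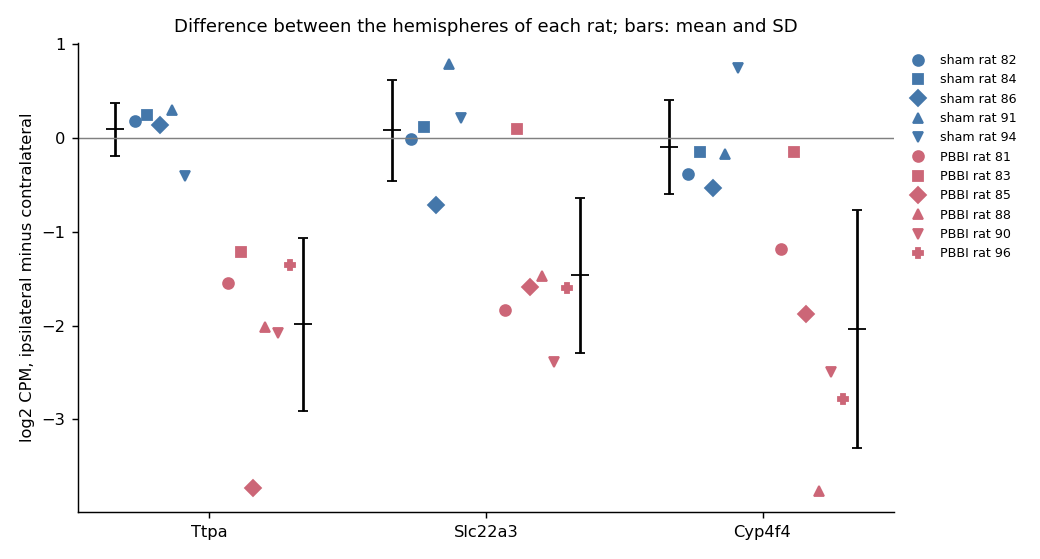
Log2 CPM of the ipsilateral minus the contralateral hemisphere in each rat, with black bars for the mean and SD (n = 5 sham, n = 6 PBBI). The PBBI means are -1.99, -1.46 and -2.04, and rat 83 (squares) is the highest PBBI point of each gene.

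Fitted with edgeR without the animal as a block, the log2 fold change between PBBI hemispheres was -1.88 for Ttpa (SE 0.417), -1.31 for Slc22a3 (SE 0.359) and -1.86 for Cyp4f4 (SE 0.421). With the animal as a block it was -1.95 (SE 0.328), -1.49 (SE 0.337) and -2.05 (SE 0.478). Without the block Ttpa and Cyp4f4 were among the 94 lowered genes (0.588% of those tested, or 3.56% in either direction) and Slc22a3 was not. With the block the 3 genes were among 579 (3.62%, or 10.3% in either direction). Nothing is read from these counts, since the injured-side libraries chose the genes. Without rat 85 and without the block the values were -1.55, -1.25 and -1.85, and 325 genes (2.03%, or 7.17% in either direction) were lower. With the block and without rat 85, an alternative chosen after seeing the data, they were -1.63, -1.46 and -2.08. Of the 16021 genes tested, 1470 were then lower.

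The difference of the injury effect between hemispheres, ipsilateral minus contralateral, was -2.0 for Ttpa (SE 0.515), -1.31 for Slc22a3 (SE 0.470) and -1.77 for Cyp4f4 (SE 0.496) on the log2 scale. None of the 3 genes was past an adjusted p of 0.05 in this fit, where 3 genes were lower (0.0181%, or 0.326% in either direction). This fit had no animal term and took both libraries of a rat as independent. Without rat 85 the values were -1.68, -1.27 and -1.78. With the animal as a block and all rats they were -2.06, -1.58 and -1.96, and Ttpa was among 219 lower genes (1.32%, or 4.27% in either direction). With the block and without rat 85, an alternative chosen after seeing the data, they were -1.75, -1.56 and -1.99. The 3 genes were then among 540 lower genes (1358 in either direction) of 16505 tested. These contrasts share the injured-side libraries and are given side by side, not as further evidence.

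The genes that share a pathway or family with each member were read from lists of 27, 28 and 43 symbols. Of these, 6, 8 and 8 could be paired with an identifier, and only through the study's own tables of genes it had called on these samples. Their counts are therefore not independent evidence of a direction. On the injured side, 4.68% of all genes tested were called, and 13.7% (5.16% lower) without rat 85, so the counts without that rat are read against the second share.

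In the list of vitamin E, sterol and lipoprotein handling, 3 of the 6 genes tested were called lower in the ipsilateral PBBI cortex and 0 were called higher. By sign alone 4 were lower and 2 higher, with a median log2 fold change of -0.62 against -0.02 for all genes. Besides Ttpa these were Sec14l2, a tocopherol-associated protein, and Rlbp1, the cellular retinaldehyde-binding protein, both of the CRAL-TRIO family to which Ttpa belongs. Sec14l2 averaged 102.1 CPM in sham and 50.7 CPM in PBBI ipsilateral cortex (log2 fold change -1.01, edgeR adjusted p = 0.0277). Rlbp1 averaged 37.4 and 20.4 CPM (-0.87, edgeR adjusted p = 0.0191). The remaining genes did not pass edgeR's test with rat 85 included: the fatty acid and lipoprotein scavenger receptor Cd36 (2.59, adjusted p = 0.0566), the endothelial lipase Lipg (1.48, adjusted p = 0.214) and the sterol exporter Abcg1 (-0.38, adjusted p = 0.217). Without rat 85, 2 genes were called higher and 3 lower. In the contralateral cortex none of the 6 was called, 2 were higher and 4 lower, and the median was -0.09 against -0.01 for all genes (-0.22 without rat 85).

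In the list of organic cation and anion transport with monoamine uptake and breakdown, 6 of the 8 paired genes could be tested, and Slc22a3 was the 1 gene called lower, with 0 called higher. The median was -1.67. Other members of the solute carrier family, the organic anion carriers Slc22a6 (-1.84, edgeR adjusted p = 0.220) and Slc22a8 (-1.49, adjusted p = 0.164) and the related Slc22a25 (-2.33, adjusted p = 0.0773), had low values with wide errors. Slc22a25 was also near the floor, with a mean of 0.365 CPM in sham and 0.070 CPM in PBBI ipsilateral cortex. Maob, which oxidises amines in glia, had -0.75 (adjusted p = 0.0755), and Hdc, the histamine-forming enzyme, had 1.0 (adjusted p = 0.113). The dopamine and serotonin transporters Slc6a3 and Slc6a4 had too few counts to test in this comparison. Slc6a4, near the floor, averaged 0.067 CPM in sham and 0.616 CPM in PBBI ipsilateral cortex. It was kept in the fit of all 22 libraries. There its injury effect, ipsilateral minus contralateral, was 3.48 (edgeR adjusted p = 0.202), opposite in sign to Slc22a3. Without rat 85, 4 genes were called lower. In the contralateral cortex none was called, 2 were higher and 4 lower, with a median of -0.20 (-0.09 without rat 85, over 5 genes).

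In the list of CYP4 and arachidonic acid enzymes, 2 of 8 genes were called lower and 2 were called higher on the injured side. By sign alone 3 were lower and 5 higher, with a median of 0.87. Called lower beside Cyp4f4 was its relative Cyp4f1, another omega-hydroxylase, with 3.54 CPM in sham and 1.53 CPM in PBBI (-1.21, edgeR adjusted p = 0.0464). Because the 2 genes are close relatives and the handling of reads that align to both was not stated, their counts are uncertain to that degree. Called higher were Ptgs2, the inducible cyclooxygenase, with 50.5 and 241.2 CPM (2.26, edgeR adjusted p = 0.0257), and Tbxas1, the thromboxane synthase (1.67, edgeR adjusted p = 0.00856). Among the genes that did not pass, Lta4h, the enzyme that forms leukotriene B4, had 0.42 (adjusted p = 0.219), the prostaglandin synthases Ptges and Ptgds had 2.91 (adjusted p = 0.0603) and -1.34 (adjusted p = 0.135), and the prostaglandin receptor Ptger2 had 1.32 (adjusted p = 0.0937). Without rat 85, 4 genes were called higher and 3 lower. In the contralateral cortex none was called, and 4 genes lay on each side of 0.

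Markers of several cell types also differed on the injured side. These could likewise be paired only through the study's tables of called genes: 18 of 28 leukocyte and microglia markers, 5 of 21 astrocyte, 5 of 22 vascular, 6 of 17 meningeal and choroid plexus and 1 of 16 oligodendrocyte markers. Their injured-side counts and gaps between groups are thus partly fixed by that choice and are a description, beside 4.68% of all genes called (13.7% without rat 85). Of the 17 leukocyte and microglia markers tested, 11 were called higher and 0 lower in the ipsilateral PBBI cortex (12 and 1 without rat 85). Their summed level ran from 634.4 to 1703 CPM (median 1224) there, against 234.2 to 493.8 CPM (median 450.1) in sham ipsilateral cortex, and rat 83 was the lowest PBBI rat. Tmem119, a microglial gene, had -0.92 (edgeR adjusted p = 0.0799). In the contralateral cortex the same markers summed to 377.5 to 535.4 CPM in PBBI and 285.7 to 437.5 CPM in sham, and 0 were called. There 17 of 17 were higher (15 of 17 without rat 85), with a median log2 fold change of 0.49 against -0.01 for all genes. An edgeR unadjusted p under 0.05 was found for 4 of them, beside 2.3% of all genes. Without rat 85 it was found for 7, beside 824 of 15814 genes. All markers were read in the same 11 rats, so their signs are not independent. Contralateral Gfap had 1.57 (edgeR unadjusted p = 0.00339, adjusted p = 1.00) and Opalin, an oligodendrocyte gene, had -0.70 (edgeR unadjusted p = 0.0141, adjusted p = 1.00). Kl, of the meningeal and choroid plexus list, had 4.90 there (edgeR unadjusted p = 0.00796) and was not called. Its level was 6.96 ± 16.2 CPM (mean and SD) in PBBI and 0.230 ± 0.110 CPM in sham contralateral cortex, so its PBBI libraries were very uneven. The part of these contralateral values in those of the 3 genes was not tested.

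Of the 5 paired astrocyte markers, Gfap was called higher (2.99) and 2 were called lower (3 without rat 85), the metabolic genes Aldh1l1 (-0.96, edgeR adjusted p = 0.0418) and Aldoc (-0.91, adjusted p = 0.0289). The summed level of the 4 astrocyte markers without Gfap ran from 570.6 to 881.6 CPM in ipsilateral PBBI cortex, with rat 83 the highest, and from 1042 to 1534 CPM in sham ipsilateral cortex. These ranges did not overlap. Most of this sum was Aldoc, with a mean of 499.4 CPM in PBBI and 942.7 CPM in sham ipsilateral cortex. Of the 6 paired meningeal and choroid plexus markers, 1 was called lower, Slc13a4 (-1.43, edgeR adjusted p = 0.0401), and 4 were without rat 85. Their sum ran from 99.6 to 619.0 CPM in PBBI against 436.0 to 968.4 CPM in sham. Most of it was Ptgds, with a mean of 253.1 CPM in PBBI and 645.1 CPM in sham ipsilateral cortex. Ptgds, Slc22a6 and Slc22a8 also belong to the lists described above. The value of 619.0 CPM was that of rat 85, and the next highest PBBI library, that of rat 83, had 423.3 CPM, below all sham libraries. Of the 5 paired vascular markers 2 were called higher (3 without rat 85), and their sum ran from 150.5 to 316.0 CPM against 109.3 to 140.4 CPM. Slc2a1 was the largest part of it, with means of 163.8 and 80.3 CPM. The 1 paired oligodendrocyte marker, Opalin, had -0.94 (edgeR adjusted p = 0.110). No paired marker was at 0 in every library of a group. The part of these shifts in cell content in the values of Ttpa, Slc22a3 and Cyp4f4 was not tested.

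Rat 83 combined the highest injured-side level of each of the 3 genes with the lowest leukocyte, lowest vascular and highest astrocyte sum without Gfap of its group. With Gfap its astrocyte sum was 3528 CPM, inside the group's range of 2436 to 7471 CPM. The plot of marker lists shows this by symbol, and with 6 rats it is given as a description.

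**Figure D4:**
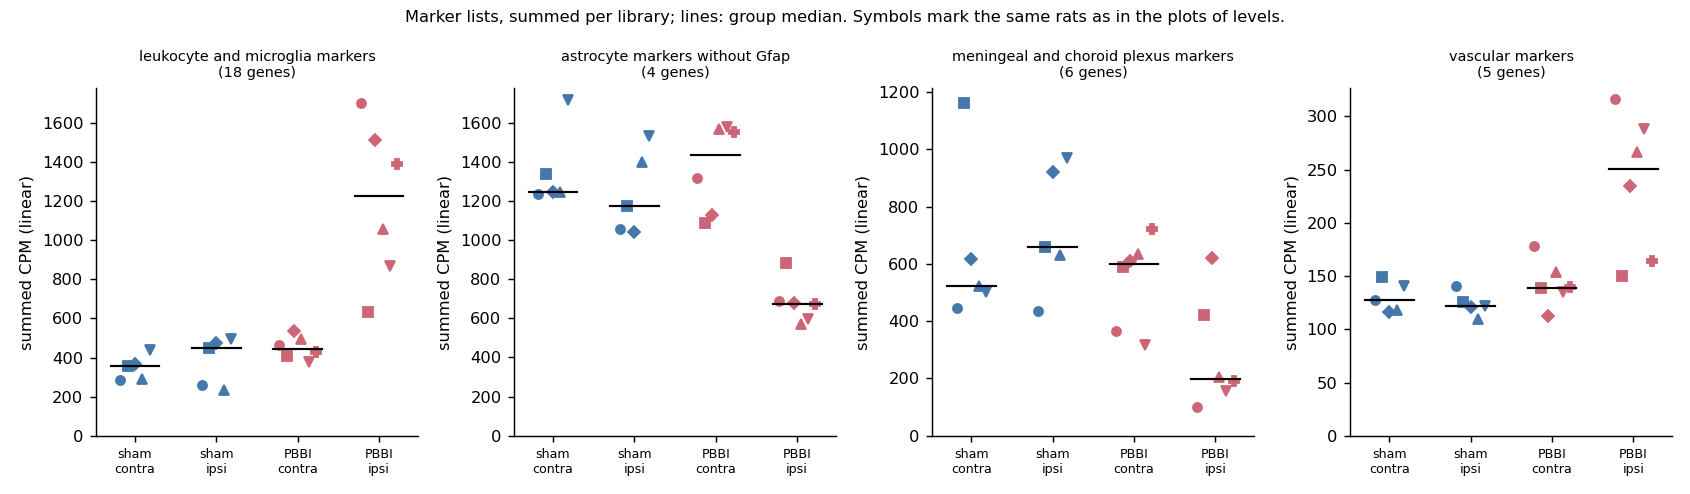
Summed CPM (linear axes from 0) of 4 marker lists in each library, with lines at the group medians. On the injured side of PBBI rats the leukocyte and microglia sum has a median of 1224 CPM and the astrocyte sum without Gfap lies between 570.6 and 881.6 CPM, and rat 83 (squares) is the PBBI library nearest to the sham libraries in both.

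The genes whose log2 CPM followed each member most closely over the 22 libraries were named by Pearson's r among the 16587 genes kept, limited to genes with a symbol. For Ttpa they were AABR07006097.1 (r = 0.923), Sgk494 (r = 0.913) and Sepp1, which encodes a selenium transport protein (r = 0.907). For Slc22a3 they were Ldhb, a lactate dehydrogenase subunit (r = 0.949), Lypd6 (r = 0.944) and AABR07027243.1 (r = 0.924). For Cyp4f4 they were Adhfe1, a hydroxyacid-oxoacid transhydrogenase (r = 0.945), Aifm3 (r = 0.928) and RGD1561661 (r = 0.907). The 22 libraries share rats and the injury, and over the 11 contralateral libraries r was 0.502, 0.566 and 0.617 for the genes of Ttpa. It was 0.872, 0.913 and 0.643 for those of Slc22a3, and 0.902, 0.290 and 0.326 for those of Cyp4f4. The 11 contralateral libraries are part of the 22 that picked these genes, so their r is not a separate check.

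Among the 3 genes themselves, r over the 22 libraries was 0.821 for Ttpa with Slc22a3, 0.759 for Ttpa with Cyp4f4 and 0.838 for Slc22a3 with Cyp4f4, values that their choice as lowered genes shapes. Over the 11 contralateral libraries, which did not choose them, r was 0.285, -0.02 and 0.334.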

How the data were processed

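Cortical RNA of 22 libraries from 11 rats was analysed. Per the labels and the methods, the authors depleted ribosomal RNA, sequenced stranded paired-end libraries, aligned reads with STAR 2.4.2a and counted them on Ensembl Rnor 6.0 genes with featureCounts 1.4.3-p1. The deposited values are raw counts, 1 column per library, with an annotated gene length. The settings for strand and for reads aligning to several places are not given in the sources used here.

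Groups, hemispheres and rats came from the sample labels. The members and the gene and marker lists were chosen with earlier results of these data known. Genes were tested with edgeR 4.0.16 (R 4.3.3): filterByExpr, TMM, the quasi-likelihood test and Benjamini-Hochberg adjustment over all genes tested, with a threshold of 0.05. The contralateral fit was also run on simulated counts, and the other fits were not. CPM used TMM factors over all 22 libraries, and log2 CPM used a prior count of 2. Single contralateral values were compared by exact permutation tests. Alternatives used DESeq2 1.42.0, limma 3.58.1, other scaling and filters, a replicate block, and fits that each left out 1 library or rat. Equal numbers mark the hemispheres of 1 rat, whose deviations from the group means correlated at 0.246 to 0.758 in all 11 rats.

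Named genes were the 3 members, the paired genes of the lists, the genes next to the threshold and, for each member, the 3 genes with a symbol and the highest r. A marker gene is not reported here and was left out of its list and sum. In the comparisons of PBBI with sham within 1 hemisphere, each rat gave 1 library and a p-value is set against the spread between rats. Fits over both hemispheres without the animal as a block took the libraries of a rat as independent. Their p-values mix the spread within and between rats. Counts were not corrected for molecules read more than 1 time.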

Additional observations from a re-analysis of the deposited data

Results flagged for a closer look

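Each group of 5 or 6 rats was checked for a rat far from the others, by setting the gap to its nearest neighbour against the range of the group. Levels were checked in CPM and differences between hemispheres on the log2 scale, and levels were not checked on the log2 scale. Of 18 such checks, 4 found one, where chance alone gives about 1 in 20 for a single check. The checks share libraries and are not independent, so no excess over chance is read from the number found. On the injured side of PBBI rats, rat 83 was the high value of Slc22a3, at 2.54 CPM against at most 1.09 CPM in the other rats. The difference between hemispheres of PBBI rats for Slc22a3 was likewise apart in rat 83, at 0.093 on the log2 scale. For Ttpa the difference between hemispheres was apart in rat 85 among PBBI rats, at -3.73, where the ipsilateral library of that rat also stood apart over all genes. Among sham rats the Ttpa difference was apart in rat 94, at -0.41, against 0.14 to 0.30 in the others.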

How the results depend on the processing

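The sign of each member's fold change was the same under all 6 to 8 alternatives of scaling, filter, tool and replicate block, except for Slc22a3 between sham hemispheres, which lay at 0.00 and was below 0 in 2 of 7. Counts of called genes moved more. For the contralateral comparison they were 0, with 3 under DESeq2 without a prior and 1 under limma voom, and 0 to 1 when 1 library was left out. For the ipsilateral comparison 753 became 1639 and 1628 under DESeq2 without and with a prior and 5014 under limma voom (2401 higher and 2613 lower), and 316 (without sham rat 91) to 2186 (without PBBI rat 85) with 1 library left out. Within PBBI, 568 became 1535, 1531 and 3695 under the same tools, 1646 with the replicate block and 3356 with that block and without rat 85, an alternative chosen after seeing the data. With 1 rat left out and no block the count ran from 1 (without rat 88) to 1149 (without rat 85). Between sham hemispheres it was 0 throughout. For the interaction 54 became 353 under DESeq2, 1663 under limma voom, 708 with the replicate block and 1358 with that block and without rat 85, with 0 to 255 (without rat 83) when 1 rat was left out. DESeq2 with a prior was not run for the interaction. The cause of these shifts was not tested.

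Under limma voom, Cyp4f4 moved to -2.56 on the injured side and -2.59 between PBBI hemispheres. The contralateral adjusted p of the members lay between 0.256 (Slc22a3, limma voom, log2 fold change -0.70) and 1.00. With 1 library left out, the contralateral edgeR value of Ttpa ran from -0.23 to 0.10, turning positive without PBBI rat 81 (0.10) and sham rat 86 (0.10), and that of Cyp4f4 from -0.22 to 0.01, positive without PBBI rat 83 (0.014). The contralateral differences of mean log2 CPM ran from -0.28 to 0.11 for Ttpa (0.11 without PBBI rat 81, 0.01 without sham rat 86), from -0.66 (without sham rat 91) to -0.27 for Slc22a3 and from -0.23 to -0.01 for Cyp4f4. With 5 and 6 rats a group, the intervals of the contralateral fold changes set the size of change that could be shown.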
